A study of Rattus norvegicus with 8 samples.

Results

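The 7 genes described here encode RNA-binding proteins and a bridge protein of male germ cells: Ddx4, Dazl, Dnd1, Tex14, Pum2, Cpeb1 and Elavl2. They were picked by symbol, and each symbol matched 1 of the 24059 rows of the count table. All 7 passed the filter on low counts that left 16976 genes for testing. The RNA came from GFP-positive testis germ cells of Sprague-Dawley rats carrying the GCS-EGFP transgene, which control and treated animals shared. The doxorubicin group of 4 rats (numbers 2, 3, 6 and 8) received the drug at 5 mg/kg on postnatal day 6, the control group of 4 rats (numbers 1, 4, 5 and 9) received vehicle, and cells were taken 24 h later. Doxorubicin is an anthracycline that traps topoisomerase II on DNA. The comparison asks which transcripts of prepubertal germ cells differ between treated and control rats at this 1 time. No batch or litter is named in the labels, and each library is labelled as a separate rat.

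Germ cells hold back and release many messages after transcription, so RNA-binding proteins set much of what they translate. Ddx4 is an RNA helicase of germ granules, the dense RNA and protein bodies of germ cells. Dazl and Dnd1 bind messages in germ cells and are needed for their survival, Pum2 and Cpeb1 bind short elements near the 3′ ends of messages and hold back or promote translation, and Elavl2 binds AU-rich sequences. Tex14 keeps the cytoplasmic bridges between sister germ cells open after division by binding Cep55, a protein that would otherwise recruit the machinery that cuts daughter cells apart.

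Library totals ran from 41253848 to 58871101 estimated counts, and between 19598 and 19964 genes were detected per library. All 16 germ cell markers exceeded 10 CPM (counts scaled to library size, here by TMM) and their sum was 3722 to 3891 CPM in control and 3762 to 3909 CPM in treated libraries. Ddx4, Dazl and Dnd1 are among these 16, so the sum is not independent of the genes described here. Marker sums of other testis cells were far lower. They ran from 70.9 to 78.5 CPM (control) and 68.9 to 81.7 CPM (treated) for 10 Sertoli genes, from 62.1 to 72.5 and 56.1 to 73.8 CPM for 9 peritubular and stromal genes, and from 74.2 to 87.3 and 85.0 to 95.1 CPM for 5 endothelial genes. The ranges were 7.83 to 9.69 and 5.16 to 11.3 CPM for 7 Leydig genes, 2.87 to 3.60 and 3.27 to 4.10 CPM for 6 macrophage and leukocyte genes, and 6.30 to 8.15 and 8.02 to 13.6 CPM for 4 erythroid genes. The highest markers in controls were Dazl for germ cells, Inha (28.5 ± 2.03 CPM), Col1a1 (22.5 ± 1.88 CPM), Pecam1 (70.7 ± 5.23 CPM), Star (4.37 ± 0.22 CPM), Csf1r (0.720 ± 0.111 CPM) and Slc4a1 (3.09 ± 0.35 CPM) (SD, n = 4). Slc4a1 was the only one of these markers called, at 7.48 ± 2.21 CPM in treated rats, and its rise is part of the higher erythroid sum. Pecam1, at 76.5 ± 5.88 CPM in treated rats, was the 1 endothelial gene above 10 CPM. The endothelial sum is therefore mostly this gene. No listed marker was at 0 in all libraries, and the part of other cells in the values that follow was not tested. Doxorubicin rat 2 stood apart in Cdkn1a, the p53 target p21, at 36.0 CPM against 15.0 to 16.9 CPM in the other treated rats and 5.37 to 6.14 CPM in controls. Without that rat, too, 0 of the 7 genes passed the test over all genes.

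The 250 bases before the RefSeq start site are shown for 4 of the genes. Cpeb1 with Elavl2 and Ddx4 with Dazl were chosen as the pairs whose centred levels differed least over the libraries. The build is GRCr8, which is not the rn6 build named for the counts, and each is written 5′ to 3′ on the strand of the gene. Capitals mark matches, on either strand, to the motifs CCAAT (the sequence bound by NF-Y), GCGGGAA (an E2F-type sequence), CACGTG (an E-box) and TATAAA, none of which overlapped another here.
Ddx4, chr2:46015952-46016201, minus strand: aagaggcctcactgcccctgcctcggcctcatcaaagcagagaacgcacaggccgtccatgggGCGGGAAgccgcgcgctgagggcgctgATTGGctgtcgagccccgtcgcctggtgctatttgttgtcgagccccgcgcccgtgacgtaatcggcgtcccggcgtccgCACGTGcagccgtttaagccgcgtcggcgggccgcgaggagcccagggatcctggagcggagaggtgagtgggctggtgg
Dazl, chr9:18193113-18193362, plus strand: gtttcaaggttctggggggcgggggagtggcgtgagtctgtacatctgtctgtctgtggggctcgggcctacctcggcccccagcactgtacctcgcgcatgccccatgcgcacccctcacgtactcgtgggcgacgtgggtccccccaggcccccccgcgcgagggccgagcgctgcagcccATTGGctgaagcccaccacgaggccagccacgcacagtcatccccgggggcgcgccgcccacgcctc
Cpeb1, chr1:144816264-144816513, minus strand: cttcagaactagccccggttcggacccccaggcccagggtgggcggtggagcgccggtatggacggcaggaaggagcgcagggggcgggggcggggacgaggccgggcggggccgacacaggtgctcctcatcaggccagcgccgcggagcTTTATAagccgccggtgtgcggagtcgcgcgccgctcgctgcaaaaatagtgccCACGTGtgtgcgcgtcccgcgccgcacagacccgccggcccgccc
Elavl2, chr5:111202288-111202537, minus strand: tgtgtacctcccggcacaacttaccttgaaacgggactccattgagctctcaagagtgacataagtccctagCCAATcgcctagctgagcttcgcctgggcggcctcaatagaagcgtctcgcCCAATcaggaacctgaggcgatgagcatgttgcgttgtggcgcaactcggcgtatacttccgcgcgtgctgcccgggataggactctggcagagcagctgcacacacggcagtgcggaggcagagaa
All 7 genes had such a window in the table. The windows of Ddx4 and Dazl each held 1 CCAAT match on the opposite strand (printed as ATTGG), 160 and 67 bases before the start site, whereas Cpeb1 and Elavl2 shared none of the 4 motifs. CCAAT was found in 4 of the 7 windows (Ddx4, Dazl, Dnd1 and Elavl2), against 34.0% of all 33465 windows of this length. GCGGGAA was found in 3 (Ddx4, Tex14 and Pum2, against 3.36% of all windows), CACGTG in 2 (Ddx4 and Cpeb1, 5.59%) and TATAAA in 1 (Cpeb1, 12.9%). A p53 half-site was found in 1 window, that of Cpeb1 (6.64% of all windows). CpG dinucleotides numbered 30 in Ddx4, 23 in Dazl, 13 in Dnd1, 12 in Tex14, 29 in Pum2, 33 in Cpeb1 and 18 in Elavl2, against a median of 5 over all windows. These matches describe the letters only, and binding was not measured.

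None of the 7 genes was called after doxorubicin. By edgeR's quasi-likelihood test over all genes 0 of 7 passed an adjusted p of 0.05, where 0.112% of all genes tested passed (0.106% higher and 0.00589% lower). At an unadjusted p under 0.05 the count was also 0 of 7, against 6.76% of all genes, and DESeq2 called 0 of 7, against 0.961% of genes. The groups overlapped in all 7 genes, and over all genes 4.72% had groups that did not overlap. The log2 fold changes ran from -0.03 for Pum2 to 0.06 for Dazl, 5 of them positive and 2 negative, with a median of 0.02 against a median of -0.0047 over all genes. A p that misses the threshold does not show equal levels, so the intervals matter more here: the 95% intervals of all 7 genes lay between -12.4% and 13.6%. In bulk RNA, fewer cells of a type and less RNA per cell cannot be told apart.

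**Figure D1:**
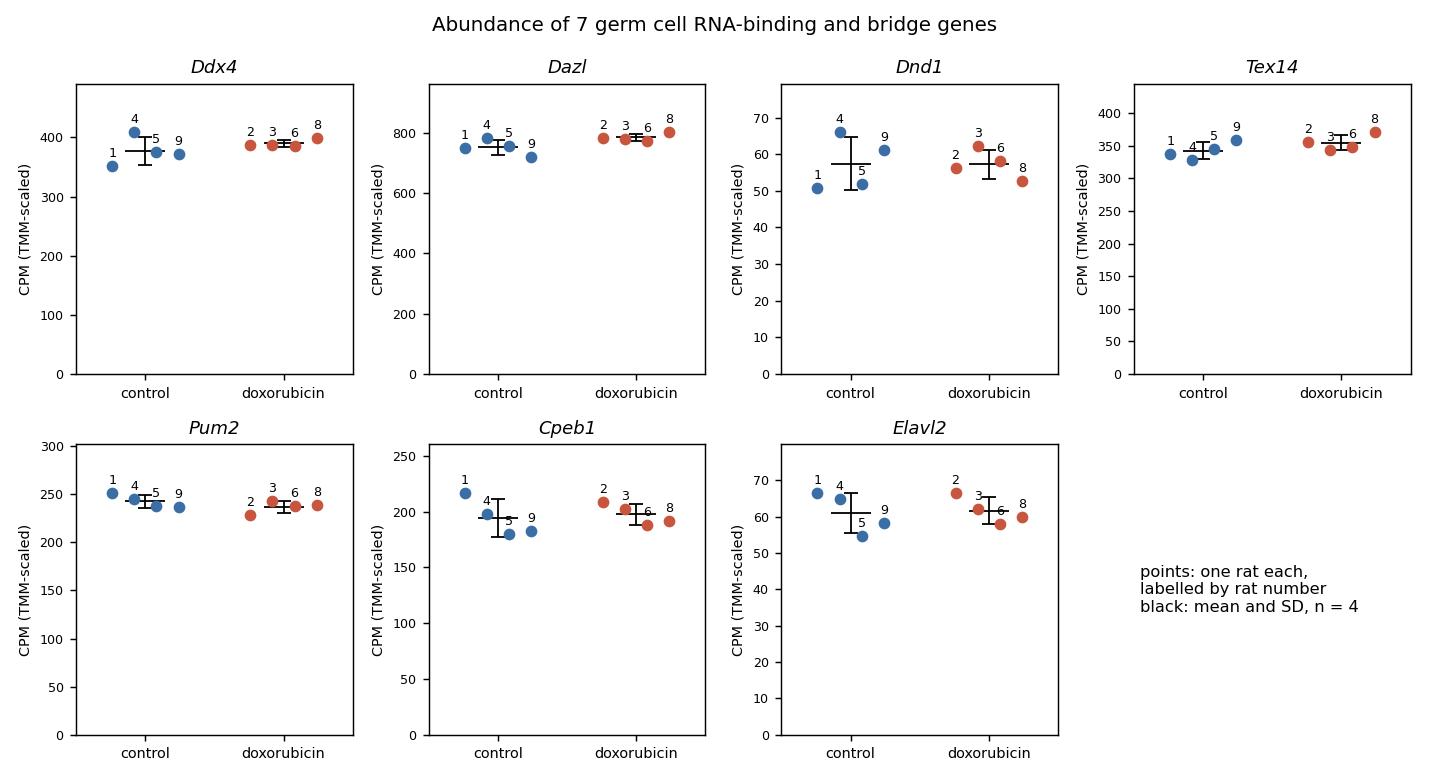
Abundance in CPM (TMM-scaled, linear axis from 0) of the 7 genes in each rat, with the rat number beside each point and the mean and SD of each group of 4 in black. In every panel the control and doxorubicin points overlap, and control rat 4 is the highest point for Ddx4 (409 CPM) and Dnd1 (66.0 CPM).

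Ddx4 (ENSRNOG00000026686.7) measured 351, 409, 376 and 372 CPM in control rats 1, 4, 5 and 9, and 387, 388, 386 and 398 CPM in doxorubicin rats 2, 3, 6 and 8. The treated values all lay inside the control range, which control rats 1 and 4 set at its ends. The group means were 377 ± 23.9 and 390.0 ± 5.64 CPM (SD, n = 4 each); the log2 fold change was 0.05 ± 0.04 (SE; adjusted p = 0.925 by edgeR) with an interval from -2.92% to 10.2%. Leaving out any 1 library moved the log2 fold change to between 0.02 and 0.09. Without control rat 4 it was 0.09, and its 95% interval on the log2 scale, from 0.02 to 0.17, no longer held 0 (adjusted p = 0.791 by edgeR). Control rat 4 was the highest control, so leaving it out raises the difference. With any other library left out the interval of Ddx4 held 0.

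Dazl (ENSRNOG00000023474.6), a translational regulator that binds messages through an RNA recognition motif, measured 749, 782, 755 and 719.9 CPM in control rats 1, 4, 5 and 9. In doxorubicin rats 2, 3, 6 and 8 it measured 783, 778, 774 and 802 CPM. Control rat 4 was the only control that reached the treated values, where it exceeded rats 3 and 6. The means were 752 ± 25.4 and 784 ± 12.6 CPM, a log2 fold change of 0.06 ± 0.03 that was the highest of the 7 and had the smallest p (unadjusted p = 0.0812 and adjusted p = 0.796 by edgeR). The interval ran from -0.61% to 9.58%. Without control rat 4 the log2 fold change of Dazl was 0.08, with a 95% interval from 0.01 to 0.16 that excluded 0 (adjusted p = 0.832 by edgeR). That rat was the highest control for Dazl too, and with any other library left out the interval held 0.

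Dnd1 (ENSRNOG00000016894.5), which acts with Nanos proteins on germ cell messages, measured 50.9, 66.0, 51.8 and 61.1 CPM in control rats 1, 4, 5 and 9 and 56.1, 62.2, 58.2 and 52.7 CPM in doxorubicin rats 2, 3, 6 and 8. The controls fell into a high pair (rats 4 and 9) and a low pair (rats 1 and 5), and the treated values lay inside the control range. The means were 57.5 ± 7.36 and 57.3 ± 3.96 CPM; the log2 fold change was -0.0039 ± 0.08 (adjusted p = 0.999 by edgeR), and the interval was the widest of the 7, from -12.4% to 13.6%. Dnd1 was the one gene of the 7 whose deposited values were not whole numbers, in all 8 libraries. RefSeq lists 3 Dnd1 pseudogenes and an overlapping neighbour, Wdr55, so the share of reads given to Dnd1 is uncertain. Of the other 6 genes, Tex14 and Cpeb1 have spans that overlap other RefSeq entries, 12 and 3 of them, all unnamed loci, a tRNA or a pseudogene. With no strand setting given, reads of such neighbours cannot be separated.

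Pum2 (ENSRNOG00000006180.8), a repressor of the Pumilio family, measured 251, 244, 237 and 236 CPM in control rats 1, 4, 5 and 9 and 228, 243, 237 and 239 CPM in doxorubicin rats 2, 3, 6 and 8. Doxorubicin rat 2 was the lowest library and control rat 1 the highest, and the remaining 6 libraries spanned 236 to 244 CPM. The means were 242 ± 7.04 and 237 ± 5.99 CPM; the log2 fold change was -0.03 ± 0.03 (adjusted p = 0.943 by edgeR; interval from -7.12% to 2.81%). The upper end of this interval was the lowest among the 7 genes.

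Cpeb1 (ENSRNOG00000019161.8), which binds the cytoplasmic polyadenylation element, measured 217, 198, 179.8 and 183 CPM in control rats 1, 4, 5 and 9. In doxorubicin rats 2, 3, 6 and 8 it measured 208, 202, 188 and 191 CPM. The means were 194 ± 16.9 and 198 ± 9.40 CPM; the log2 fold change was 0.02 ± 0.06 (adjusted p = 0.980 by edgeR; interval from -6.81% to 10.9%). In both groups the rats with low numbers (1 to 4) lay above those with high numbers (5 to 9).

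Elavl2 (ENSRNOG00000006853.9), also called HuB and known from neurons and germ cells, measured 66.4, 64.8, 54.7 and 58.3 CPM in control rats 1, 4, 5 and 9 and 66.5, 62.2, 57.9 and 60.0 CPM in doxorubicin rats 2, 3, 6 and 8. It showed the same order as Cpeb1, with rats 1 to 4 above rats 5 to 9 in both groups. The Elavl2 means were 61.1 ± 5.49 and 61.6 ± 3.69 CPM; the log2 fold change was 0.01 ± 0.06 (adjusted p = 0.991 by edgeR; interval from -8.37% to 11.3%).

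Tex14 (ENSRNOG00000023698.7), the bridge protein, measured 337, 327, 345 and 359 CPM in control rats 1, 4, 5 and 9 and 356, 344, 348 and 371 CPM in doxorubicin rats 2, 3, 6 and 8. Control rat 9 exceeded 3 of the 4 treated rats, and doxorubicin rat 8 was the highest library. The means were 342 ± 13.5 and 355 ± 12.0 CPM; the log2 fold change was 0.05 ± 0.04 (adjusted p = 0.888 by edgeR; interval from -2.06% to 9.60%). Doxorubicin rat 8 was also the highest treated rat for Ddx4 and Dazl.

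**Figure D2:**
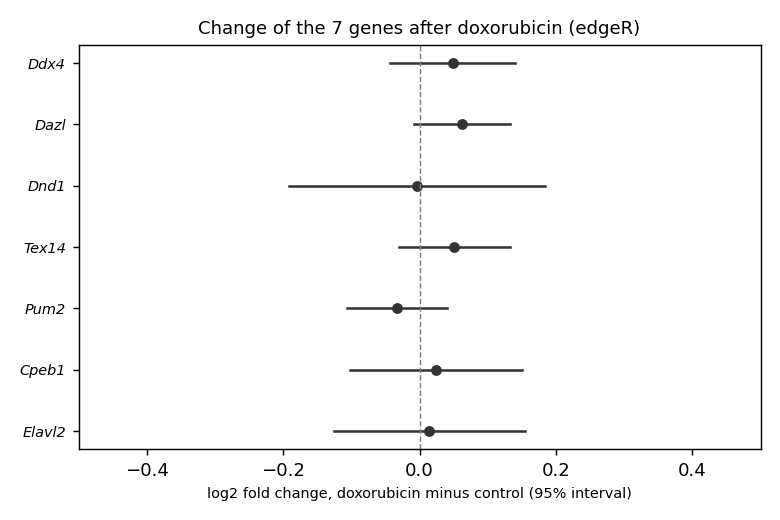
Log2 fold change of each of the 7 genes, doxorubicin minus control, with its 95% interval from edgeR. Every interval crosses 0, the estimates run from -0.03 for Pum2 to 0.06 for Dazl, and the interval of Dnd1 is the widest.

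The lowest count of any of the 7 genes in a library was 2430, for Elavl2 in doxorubicin rat 6, which gives a counting error of 2.03%, and for Dazl the counting error was at most 0.577%. The spread between rats was larger, with a coefficient of variation in controls from 2.90% for Pum2 to 12.8% for Dnd1 and in treated rats from 1.45% for Ddx4 to 6.92% for Dnd1. Compared with the 9362 genes of at least 10 CPM, Dazl and Pum2 were among the steadier (9.79% and 10.7% of those genes had a smaller within-group SD of log2 CPM), followed by Tex14 (25.0%) and Ddx4 (40.3%). Cpeb1 (70.6%), Elavl2 (76.3%) and Dnd1 (88.8%) varied more than most. All 7 genes had a smaller coefficient of variation in the treated group than in controls, and 54.4% of the genes of at least 10 CPM did so too. The 7 genes share the same 8 libraries, so this is 1 description and not 7 separate observations. No levels are ranked between genes, since CPM are not corrected for transcript length.

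Across the 8 libraries 2 pairs of genes differed least in level, and 1 gene differed most from the rest. Likeness was measured as the root mean square difference between the log2 CPM of a pair of genes (pseudocount 0.5), each centred on its mean over 8 libraries. It was 0.04 log2 units for Cpeb1 with Elavl2, the smallest of 21 pairs, and 0.04 for Ddx4 with Dazl, the next. For comparison the SD over the 8 libraries was 0.09 for Cpeb1, 0.10 for Elavl2, 0.07 for Ddx4 and 0.05 for Dazl. Dnd1 stood farthest from the rest, with differences from 0.11 (Ddx4) to 0.16 (Cpeb1) and an SD of 0.14. The measure reflects the spread of each gene as well as its pattern. Genes that vary little lie close together, and a gene that varies much tends to lie far from others.

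**Figure D3:**
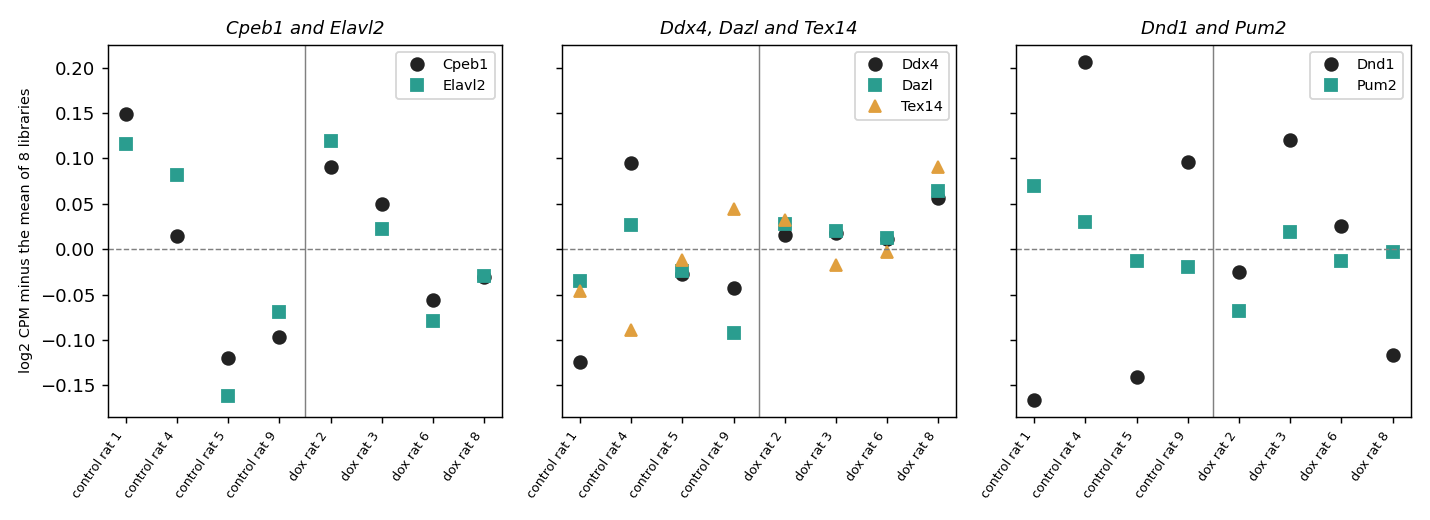
Log2 CPM of each gene minus its own mean over the 8 libraries, by library, with controls to the left of the vertical line and doxorubicin rats (dox) to the right. Cpeb1 and Elavl2 lie above 0 in rats 1 to 4 and below 0 in rats 5 to 9 of both groups, while Dnd1 is highest in control rat 4.

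Cpeb1 and Elavl2 were the 2 of 7 genes whose libraries split without overlap by rat number, and 11.1% of the genes of at least 10 CPM did the same. Cpeb1 ran from 198 to 217 CPM in rats 1 to 4 and from 179.8 to 191 CPM in rats 5 to 9. Elavl2 ran from 62.2 to 66.5 CPM and from 54.7 to 60.0 CPM in the same sets. The labels do not say what the numbers stand for. Within rats 1 to 4 the treated mean differed from the control mean by -0.01 log2 units for Cpeb1 and -0.03 for Elavl2, and within rats 5 to 9 by 0.07 and 0.06 (2 rats a group in each set, not tested). With a term for the set of rat numbers the 95% interval of the Cpeb1 change on the log2 scale ran from -0.05 to 0.10 (-0.10 to 0.15 without the term) and that of Elavl2 from -0.07 to 0.11 (-0.13 to 0.15 without it), and still 0 of 7 genes were called (edgeR). The term takes out the difference between the same sets on which these 2 genes split. Their narrower intervals follow from that choice and are no separate evidence.

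The genes with the most similar pattern over the 8 libraries were sought among 8950 others with a symbol of their own and at least 10 CPM. Cpeb1 was nearest to Slc25a32 and Kpna4, at root mean square differences of 0.018 and 0.020 log2 units. Kpna4 was also the nearest gene to Elavl2 (0.030), followed by Amz2 (0.031). For Ddx4 the nearest were Ppid and Ahsa1 (0.024 and 0.025), for Dazl Pramel and Dym (0.020 and 0.021), for Tex14 Sidt2 and Rnf4 (0.016 and 0.021) and for Pum2 Tlk1 and Tgs1 (0.010 and 0.013). Dnd1 had no gene as close in these units, with Gprasp2 at 0.034 and Dolpp1 at 0.042. The SD over the 8 libraries was largest for Dnd1 (0.14 log2 units), against 0.04 (Pum2) to 0.10 (Elavl2) for the other genes described here. The distance depends on that spread too, so it does not show that fewer genes share the pattern of Dnd1. Each of the nearest genes was likewise not called.

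Paralogs of the 7 genes gave no calls. Calls were rare over all genes, so 0 calls in a list of this size is near the share over all genes. Of 12 close relatives 11 were tested (Rbm47, with 3 to 23 counts per library, fell below the filter), with 5 positive and 6 negative log2 fold changes and a median of -0.02. By edgeR or DESeq2 0 passed the threshold, against 0.112% and 0.961% of all genes. The count at an unadjusted p under 0.05 by edgeR was 1 lower, against 6.76% of all genes in either direction. That gene was Cpeb4, a paralog of Cpeb1, at 20.5 ± 1.00 CPM in control rats and 17.9 ± 1.71 CPM in treated rats; the log2 fold change was -0.19 ± 0.08 (adjusted p = 0.606 by edgeR). Its groups overlapped, from 19.0 to 21.2 CPM against 16.1 to 20.1 CPM. The further paralogs Cpeb2 and Cpeb3 had log2 fold changes of 0.10 and -0.05. Elavl1, the widely expressed HuR, measured 68.8 ± 3.27 and 73.6 ± 3.18 CPM (log2 fold change 0.10; adjusted p = 0.755 by edgeR), and Elavl4 10.7 ± 0.40 and 10.5 ± 0.66 CPM. Boll, the relative of Dazl that acts in meiosis, measured 27.9 ± 0.90 and 26.0 ± 1.16 CPM (log2 fold change -0.10; adjusted p = 0.797 by edgeR). The DEAD-box helicase Ddx3x had a log2 fold change of 0.0063, and Rbm46, a germ cell relative of Dnd1, one of -0.02. Reads may be divided between close paralogs in a way the sources do not describe.

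Dnd1 is known to act with Nanos2 and Nanos3, which recruit the CCR4-NOT deadenylase to messages. Nanos2 measured 15.2 ± 1.32 CPM in control rats and 14.6 ± 2.08 CPM in treated rats (log2 fold change -0.06), and Nanos3 16.8 ± 1.94 and 17.6 ± 3.08 CPM (0.06). Of the 16 Nanos and CCR4-NOT genes, 5 were positive and 11 negative with a median of -0.0071. By edgeR or DESeq2 0 were called, against 0.112% and 0.961% of all genes. The counts at an unadjusted p under 0.05 by edgeR were 1 higher and 1 lower, against 6.76% of all genes in either direction. Those were Tob1, an adaptor of the deadenylase, at 14.6 ± 0.41 and 16.3 ± 0.88 CPM (log2 fold change 0.16 ± 0.07; adjusted p = 0.641 by edgeR), and Btg4, a related adaptor known from oocytes. Counts of Btg4 ran from 11 to 15 in control and from 1 to 9 in treated libraries (adjusted p = 0.479 by edgeR), with doxorubicin rats 6 and 8 the lowest. All treated libraries lay above all controls in CPM for Tob1 and below them for Btg4. Over all genes 2.77% and 1.95% did so, and in this list 1 gene lay above and 1 below. Both were named for the smallest p of their list, which favours such a separation.

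The enzymes that lengthen or shorten poly(A) tails with Cpeb1 also gave no calls. Of 17 genes of cytoplasmic polyadenylation and cap-bound repression, 7 were positive and 10 negative with a median of -0.02. By edgeR or DESeq2 0 passed, against 0.112% and 0.961% of all genes. The count at an unadjusted p under 0.05 by edgeR was 1 lower, against 6.76% of all genes in either direction. That gene was Tent2, the poly(A) polymerase also called Gld2, at 82.0 ± 2.35 CPM in control rats and 75.1 ± 2.21 CPM in treated rats (log2 fold change -0.13 ± 0.04; adjusted p = 0.410 by edgeR and 0.218 by DESeq2). All 4 treated libraries (72.8 to 77.9 CPM) lay below all 4 controls (79.0 to 84.4 CPM), a pattern found in 1.95% of all genes. Pabpc1, the main poly(A)-binding protein, measured 2070 ± 23.8 and 2170 ± 113 CPM (log2 fold change 0.07; adjusted p = 0.803 by edgeR). Its treated libraries (2106 to 2340 CPM) all lay above its controls (2034 to 2085 CPM), which held for 2.77% of all genes. In this list 1 gene separated upward and 1 downward. Tent2 and Pabpc1 were named for the smallest p of the list, which favours such a separation.

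Germ granule partners of Ddx4 and other RNA-binding proteins likewise gave no calls. Of 13 Tudor and germ granule genes, 7 were positive and 6 negative with a median of 0.0035. By edgeR or DESeq2 0 were called, against 0.112% and 0.961% of all genes. The count at an unadjusted p under 0.05 by edgeR was 1 higher, against 6.76% of all genes in either direction. That gene was Tdrkh, which anchors piRNA factors at mitochondria, at 77.0 ± 4.27 and 86.9 ± 4.65 CPM (log2 fold change 0.18 ± 0.05; adjusted p = 0.323 by edgeR), with treated libraries from 83.8 to 93.8 CPM above controls from 71.9 to 82.4 CPM. Such a separation upward was found in 2.77% of all genes, and in this list in 1 gene, which was named for its small p. Tdrd6 had a log2 fold change of -0.27 ± 0.22 at 2.25 ± 0.60 CPM in controls. Of 33 other RNA-binding genes, 17 were positive and 16 negative with a median of 0.0030. Here too 0 were called by either tool, against the same shares of all genes. The counts at an unadjusted p under 0.05 by edgeR were 1 higher and 1 lower, against 6.76% of all genes in either direction. The lower one was Lin28a, which blocks let-7 maturation, at 16.8 ± 0.68 and 14.6 ± 1.05 CPM (log2 fold change -0.20 ± 0.07; adjusted p = 0.517 by edgeR), and the higher one Igf2bp3, at 91.2 ± 4.59 and 99.3 ± 5.96 CPM (0.12 ± 0.05; adjusted p = 0.651 by edgeR). The treated libraries of Lin28a all lay below its controls, as in 1.95% of all genes, and the groups of Igf2bp3 overlapped. Lin28a was the 1 gene of its list to separate, and it too was named for its small p. Among 5 germline messages known to be bound by Dazl, Ddx4 and Tex14 included, 4 were positive and 1 negative with a median of 0.05. Of these, 0 were called by edgeR or DESeq2 (0.112% and 0.961% of all genes) and 0 had an unadjusted p under 0.05 by edgeR (6.76%). Tex19.1 had a log2 fold change of 0.08 and Sycp3, a meiotic chromosome axis protein, one of -0.06.

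The bridge and midbody genes that Tex14 works beside gave the only call among these lists. With edgeR 1 of its 17 genes was called, higher in treated rats, where 0.106% of all genes were called higher. DESeq2 called 2, both higher, against 0.961% of genes in either direction. At an unadjusted p under 0.05 by edgeR the count was 7 higher, 0 lower, against 6.76% of all genes in either direction. The median log2 fold change was 0.05, with 13 positive and 4 negative, against -0.0047 over all genes. Prc1, which bundles microtubules of the central spindle, measured 207, 204, 189 and 191 CPM in control rats 1, 4, 5 and 9 and 251, 231, 236 and 226 CPM in doxorubicin rats 2, 3, 6 and 8. It rose by a log2 fold change of 0.26 ± 0.04 (adjusted p = 0.0446 by edgeR), with all treated libraries above all controls. The estimate stayed between 0.23 and 0.28 over 16 alternatives, but it passed the threshold in 8 of them, and without control rat 5 its adjusted p was 0.217. Prc1 and several others of this list are mitotic genes whose higher level in these libraries was already known when the list was made, so the count is no independent evidence of its direction.

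Next to Prc1, Plk1, a mitotic kinase, measured 129 ± 10.4 and 160.5 ± 9.20 CPM (log2 fold change 0.31 ± 0.06; adjusted p = 0.0801 by edgeR and 0.000528 by DESeq2). For Kif23, a kinesin of the midbody and of germ cell bridges, the log2 fold change was 0.19 ± 0.05 (adjusted p = 0.2302 by edgeR) and the ring scaffold Anln one of 0.13 ± 0.04 (adjusted p = 0.291 by edgeR). Cep55, the partner of Tex14, measured 60.9, 63.7, 59.7 and 59.5 CPM in control rats 1, 4, 5 and 9 and 66.6, 66.7, 65.9 and 65.8 CPM in doxorubicin rats 2, 3, 6 and 8. The treated values of Cep55 lay close together and above every control, with a log2 fold change of 0.12 ± 0.04 that missed the threshold (adjusted p = 0.434 by edgeR and 0.206 by DESeq2). In 5 of the 17 genes (Prc1, Plk1, Kif23, Anln and Cep55) all treated libraries lay above all controls, which held for 2.77% of all genes, and in 0 of 17 they lay below. Tex14 was not among the 5. Several genes of this list were already known to be higher in these libraries when the list was made. The 17 genes also share the same 8 libraries, so this count is no independent evidence of direction. Rbm44, an RNA-binding protein of the bridges, had a log2 fold change of 0.10 ± 0.04 and overlapping groups (adjusted p = 0.582 by edgeR), and Racgap1, the partner of Kif23, had one of 0.03. The abscission factors Tsg101, Pdcd6ip and Chmp4b had log2 fold changes of 0.02, -0.02 and -0.08, and the septins Septin2, Septin6, Septin7 and Septin9 lay between -0.08 and 0.05. Whether Tex14 differed in its change from its partners was not tested.

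**Figure D4:**
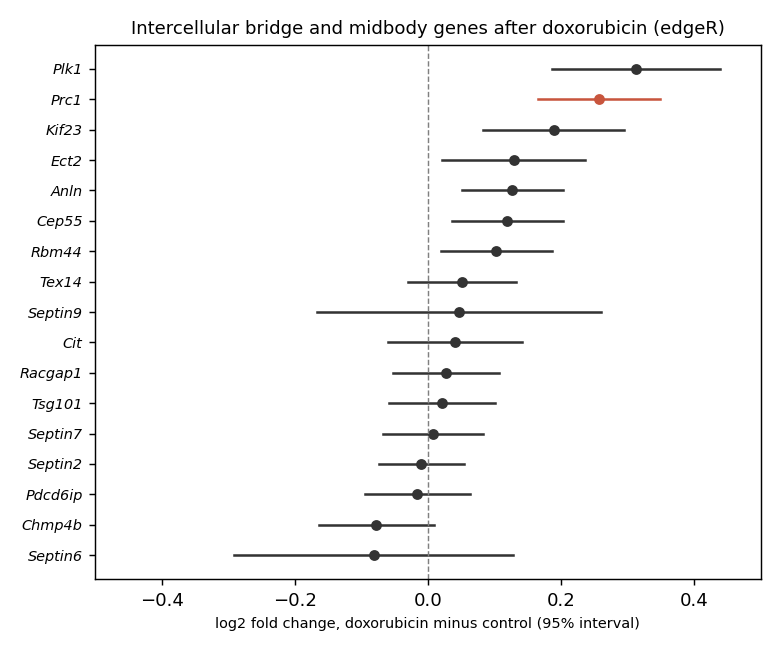
Log2 fold change, doxorubicin minus control, of the 17 intercellular bridge and midbody genes with 95% intervals from edgeR, ordered by estimate; red marks the gene past the adjusted threshold. Plk1 (0.31) and Prc1 (0.26) stand highest, Cep55 lies at 0.12, and the interval of Tex14 crosses 0.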

How the data were processed

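PolyA-enriched RNA libraries of GFP-positive testis germ cells from 4 control and 4 doxorubicin rats were used, from RNA isolated with a PicoPure kit, per the labels' protocols. Tools named in the submitters' processing notes, without role or order, are DESeq2 1.40.2, featureCounts, kallisto 0.48.0, Trimmomatic, fastp 0.23.2, FastQC 0.11.9 and MultiQC 1.12, with build rn6. The authors deposited estimated counts per gene, not normalized. Values were rounded, since 32.5% to 33.6% of those in a library were not whole (tolerance 1e-06). The sources used here do not give the strand setting or how reads shared between genes were assigned.

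In R 4.3.3 with edgeR 4.0.16, filterByExpr chose the genes, TMM gave the scaling, and a robust quasi-likelihood F test was run with no covariate, Benjamini-Hochberg adjusted over 16976 genes at 0.05. SE is the size of the log2 fold change over the root of F. DESeq2 1.42.0, limma-voom (limma 3.58.1), other scalings and filters, a term for the set of rat numbers and leaving out each library were alternatives. The libraries of every pair differed by more than sampling noise (chi-square per degree of freedom at least 6.57). On simulated data with 16976 genes for doxorubicin against control, the test found 39 of 50 genes set to a 1.25-fold and 47 of 50 set to a 1.5-fold change, with 18 false among 203 calls. These draws were independent and need not match real rats. In this 1 simulation the share of false calls exceeded the 0.05 of the threshold, which bears on calls near it, such as Prc1. Changes were set only in genes of at least 10 CPM. The 203 calls, against 19 in the real data, loosen the adjusted threshold, so the found shares may be too high for the real data. The table had 2356 rows with no symbol, 7 of which an Entrez identifier named. Eif4e2 was not analysed here. Start-site windows come from RefSeq (GRCr8). The members and lists were chosen with earlier results of these data known. Named were the 7 genes, their relatives of at least 1 CPM, Nanos2, Nanos3 and Cep55, list genes past the threshold, the 2 others with the smallest p per list, the 2 nearest patterns per gene and the highest marker per cell type; a gene that this rule takes in is not reported here. The other bridge genes were named after their values were seen.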

Additional observations from a re-analysis of the deposited data

Results flagged for a closer look

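Values were examined in 62 groups of 4 libraries, and in 7 of them the highest or lowest library lay far from the others for the range of the 4, where chance gives about 1 in 20 groups, or 3.1. The groups share the same 8 libraries, so they are not independent, and some genes were named for a small p. Whether 7 exceeds chance was not tested. Among the 7 genes described here, the flagged value was Ddx4 in doxorubicin rat 8. It stood at 398 CPM against 386 to 388 CPM in the other treated rats, inside the control range. Rbm46 stood at 128 CPM in control rat 4 (109 to 113 CPM in the others) and at 122 CPM in doxorubicin rat 3 (111 to 112 CPM). Pabpc1 stood at 2034 CPM in control rat 9, below the others (2079 to 2085 CPM), and at 2340 CPM in doxorubicin rat 8, above them (2106 to 2120 CPM). Plk1 stood at 174 CPM in doxorubicin rat 2 (154 to 157 CPM) and Lin28a at 17.8 CPM in control rat 9 (16.3 to 16.6 CPM).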

How the results depend on the processing

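None of the 7 genes passed the threshold under any of the 16 alternatives run. Ddx4, Dazl, Tex14 and Pum2 also kept their sign in all 16, with log2 fold changes of 0.02 to 0.09, 0.05 to 0.08, 0.03 to 0.08 and -0.04 to -0.02. Dnd1 changed sign in 7, at 4.5e-05 without a filter, 2.8e-05 with a mean of at least 1 CPM and 0.0039 with limma-voom, and ran from -0.058 (without control rat 1) to 0.074 (without control rat 4) when 1 library was left out. Cpeb1 ran from -0.011 (without control rat 5) to 0.081 (without control rat 1), and Elavl2 from -0.036 to 0.057 for the same libraries. The sign of these 3 genes therefore depended on the alternative. The alternatives reuse the same libraries, so a sign kept in all 16 is no separate evidence of direction. In the main fit the intervals of all 7 genes held 0. Over all genes edgeR called 18 higher and 1 lower. DESeq2 called 159 higher and 11 lower, a fit that was not robust 52 higher, a term for the set of rat numbers 60 higher, and a mean of at least 1 CPM 0 lower. Leaving out 1 library gave 1 (without control rat 4 or 5 or doxorubicin rat 8) to 59 (without doxorubicin rat 2) higher and 0 to 3 lower. In the bridge and midbody list, with 1 call, DESeq2 gave 2, limma-voom 0, and leaving out 1 library 0 to 2; the call of Prc1 was lost without control rat 4, 5 or 9 and without doxorubicin rat 3, 6 or 8. The cause of these shifts was not tested. No paired analysis was possible because the groups share no rat numbers. With 4 rats a group the precision is limited by the spread between rats.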
